A study of Mus musculus with 12 samples.

Results

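The 5 genes described here encode the sterol hydroxylases that make oxysterols or pass them on into bile acids, namely Cyp27a1, Cyp7b1, Cyp39a1, Cyp46a1 and Ch25h. The rule that defines them is this known role. All 5 have a row among the 51609 gene rows of the deposited table, and all 5 were among the 17652 genes that passed the filter on low counts. Bulk RNA-seq was done on whole liver of C57BL/6 mice in 12 libraries, from 4 groups of 3 mice. Wild-type mice were littermates carrying floxed Rela and Stat3 alleles without Cre (Rela fl/fl Stat3 fl/fl). RelaΔhepStat3Δhep mice carried the same floxed alleles with a Cre driven by the albumin promoter, which acts in hepatocytes, so the other cells of the liver keep both genes. One group of each genotype was left untreated, and the other drank 2% dextran sodium sulfate (DSS), which injures the colon epithelium, for 6 days. Mice were young, several weeks old by the study's methods, and both sexes were used.

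Cholesterol becomes a bile acid by routes that differ in their first hydroxylation. The classic route starts with Cyp7a1 in hepatocytes, whereas the alternative route starts on the side chain, where Cyp27a1 acts in mitochondria in many tissues. The oxysterols made in this way are ligands of the liver X receptors and, after hydroxylation by Cyp7b1, can enter bile acid synthesis. Cyp7b1 and Cyp39a1 are both oxysterol 7α-hydroxylases of the endoplasmic reticulum, Cyp7b1 being known for 25- and 27-hydroxycholesterol and Cyp39a1 for 24-hydroxycholesterol. Cyp46a1 is the cholesterol 24-hydroxylase of neurons, and Ch25h makes 25-hydroxycholesterol and is known as an interferon-induced gene of macrophages. In mouse liver, Cyp7b1 is known to be higher in males and Cyp39a1 in females.

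In the mm9 build, Cyp27a1 (ENSMUSG00000026170) lies at chr1:74760148-74784464 on the plus strand with 9 exon blocks, and Cyp7b1 (ENSMUSG00000039519) at chr3:17971950-18143338 on the minus strand with 6. Cyp39a1 (ENSMUSG00000023963) lies at chr17:43804374-43888380 on the plus strand with 12 exon blocks, and Cyp46a1 (ENSMUSG00000021259) at chr12:109572587-109600441 on the plus strand with 15. Ch25h (ENSMUSG00000050370) is a single exon of 1350 bases at chr19:34548276-34549625 on the minus strand. The antisense long noncoding RNA Gm16704 overlaps 328 of those bases, and since the strand setting of the counting is not given in the sources used here, reads of the pair cannot be told apart. A U1 RNA of 164 bases and a U2 RNA of 190 bases lie inside Cyp7b1 and Cyp39a1 on the same strand.

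Promoter sequence was at hand in RefSeq (GRCm38.p6, coordinates of that build) for 3 of the 5 genes, Cyp27a1, Cyp46a1 and Ch25h. It is shown because the deletion targets a STAT factor and an NF-κB subunit. The 250 bases before each start were searched on both strands for the STAT motif TTCNNNGAA, the κB consensus, the CCAAT box CCAAT, the GC box GGGCGG and the cyclic AMP response element (CRE) TGACGTCA. The last 3 motifs were added after the sequences were seen. Capitals mark the matches, and no matches of different motifs overlap.
Cyp27a1, chr1:74713285-74713534, plus strand: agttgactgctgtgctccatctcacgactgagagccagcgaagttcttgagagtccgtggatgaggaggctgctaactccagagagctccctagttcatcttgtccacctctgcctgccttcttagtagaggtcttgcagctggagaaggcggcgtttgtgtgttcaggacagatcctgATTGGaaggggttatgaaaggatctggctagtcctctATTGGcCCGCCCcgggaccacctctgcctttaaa
Cyp46a1, chr12:108334066-108334315, plus strand: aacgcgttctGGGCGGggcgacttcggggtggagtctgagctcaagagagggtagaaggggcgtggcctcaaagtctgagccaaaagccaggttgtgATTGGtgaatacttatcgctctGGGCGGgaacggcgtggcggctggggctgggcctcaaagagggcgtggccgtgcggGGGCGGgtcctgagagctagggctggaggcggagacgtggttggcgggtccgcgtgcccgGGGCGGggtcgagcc
Ch25h, chr19:34475149-34475398, minus strand: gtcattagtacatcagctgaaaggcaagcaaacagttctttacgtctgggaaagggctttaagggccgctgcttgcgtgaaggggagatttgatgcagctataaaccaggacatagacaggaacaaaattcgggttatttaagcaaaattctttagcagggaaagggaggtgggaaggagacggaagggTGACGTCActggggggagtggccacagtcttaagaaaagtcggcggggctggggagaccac

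None of the 3 windows held the STAT motif or the κB consensus, which were found in 7.02% and 3.9% of the 32851 promoter windows of this length. The Cyp27a1 window held 2 CCAAT boxes and 1 GC box, and the Cyp46a1 window held 1 CCAAT box and 4 GC boxes. The CCAAT box was found in 33.8% and the GC box in 32.7% of all windows. The Ch25h window held 1 CRE, 61 bases before the start. That motif was found in 1.55% of all windows, but it was added after the sequences were seen, so the share does not measure how unusual the match is. These matches describe letters in the windows and not binding sites.

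The libraries held between 65879529 and 82850098 estimated counts and between 20391 and 21830 detected genes. Levels are given as CPM, counts scaled to a common library size, here one corrected by TMM, a normalization of edgeR. Rela, one of the 2 deleted genes, had group means of 47.1 (untreated) and 45.5 CPM (DSS) in wild-type livers, and of 46 and 49.4 in the libraries labelled RelaΔhepStat3Δhep, so its whole-gene count does not check the label. Stat3 had means of 90.3, 233, 47.4 and 58.6 CPM in the same order. The genotypes overlapped for Stat3, since untreated wild-type library 1 was at 45.7 CPM and DSS-treated wild-type library 1 at 63.2, against RelaΔhepStat3Δhep ranges of 45.9 to 49.7 untreated and 43 to 74.8 after DSS. The hepatocyte markers summed to between 103000 and 188000 CPM over the 12 libraries. Xist, the RNA of the inactive X chromosome, was at 903 to 1280 CPM in the 3 DSS-treated RelaΔhepStat3Δhep libraries and at 1140 in untreated wild-type library 3, and at or under 29 in the other 8. That wild-type library also held Y-linked transcripts at 14.7% of the median of the low-Xist libraries. DSS-treated wild-type library 1 differed from its group in the acute-phase genes, which summed to 26300 CPM there against 238000 and 70000 in libraries 2 and 3. The summed CPM of 11 macrophage markers ran from 418 to 826 in untreated and 829 to 1520 in DSS-treated wild-type livers, and from 593 to 660 and 1240 to 1840 in RelaΔhepStat3Δhep livers. In whole tissue, fewer cells of a type and less RNA per cell cannot be told apart.

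The 5 hydroxylases spanned a wide range of abundance in liver. Per kilobase of exon, the mean level over the 12 libraries was 174 CPM for Cyp27a1, 73.4 for Cyp7b1 and 30.8 for Cyp39a1, which placed them at the 98.6th, 96.7th and 92nd percentiles of the 14985 protein-coding genes detected. Cyp46a1, at 0.291 CPM per kilobase, and Ch25h, at 0.078, stood at the 29.4th and 19.9th percentiles. Cyp27a1 was above Cyp7b1 in 12 of 12 libraries, although the ranges of these neighbours overlapped among the DSS-treated wild-type livers. Cyp7b1 was above Cyp39a1 in 8 libraries and below it in 4, and their ranges overlapped in the untreated wild-type group and the DSS-treated RelaΔhepStat3Δhep group. The 4 libraries with the reversed order were those with high Xist.

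**Figure D1:**
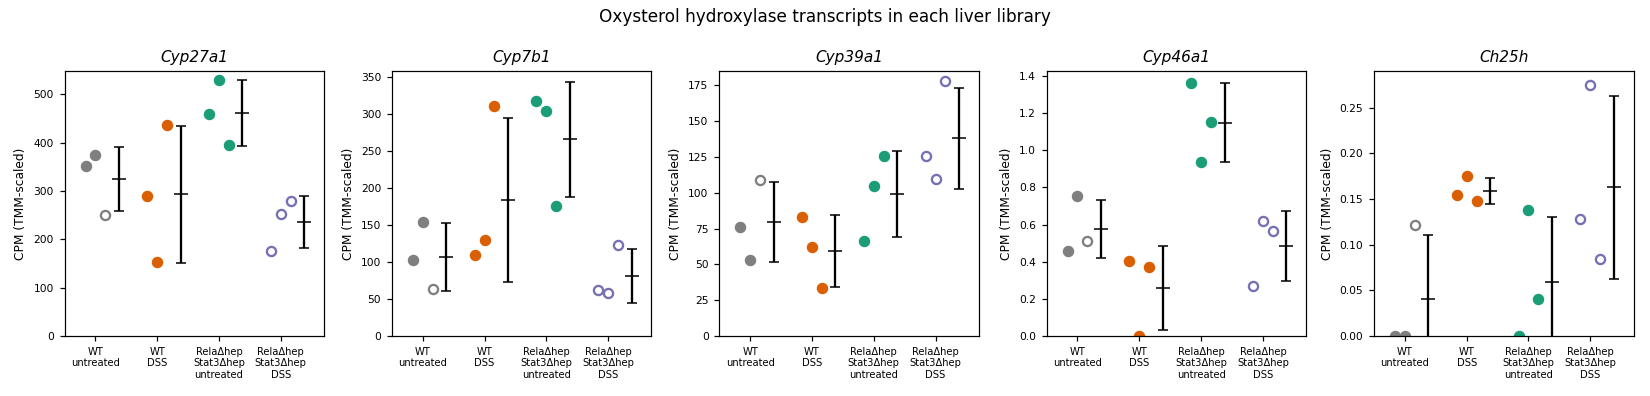
TMM-scaled CPM (vertical axes, linear, from 0) of the 5 hydroxylase genes in each of the 12 libraries, by group on the horizontal axes. Points are libraries, open points those with high Xist, and bars the mean ± SD of 3 mice, with bars that would pass below 0 cut at 0. The 3 DSS-treated RelaΔhepStat3Δhep livers, all with high Xist, lay below the 3 untreated ones for Cyp27a1, Cyp7b1 and Cyp46a1. In that comparison 31.8% of all genes had groups that did not overlap.

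Cyp7b1, which carries 25- and 27-hydroxycholesterol into bile acid synthesis, had the largest fitted interaction in size and the largest genotype difference in untreated livers of the 5. In untreated wild-type livers it was at 102, 154 and 63.9 CPM in libraries 1, 2 and 3, and in DSS-treated wild-type livers at 110, 129 and 311. In RelaΔhepStat3Δhep livers it was at 317, 303 and 176 CPM untreated and at 62, 58.3 and 123 after DSS. The untreated RelaΔhepStat3Δhep livers were thus all above the untreated wild-type livers, and the DSS-treated ones all below their own untreated livers, whereas the wild-type groups overlapped and 1 DSS-treated library stood above the rest.

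Whether DSS moved Cyp7b1 was asked within each genotype. In RelaΔhepStat3Δhep livers the mean was 265 ± 77.4 CPM (SD, n = 3) untreated and 81 ± 36.1 (n = 3) after DSS. The fitted difference was a log2 fold change of -1.71 (SE 0.48), or 3.28-fold lower, with an unadjusted p of 0.00428 and an adjusted p of 0.0553 in edgeR's quasi-likelihood test, which missed the threshold of 0.05. It passed in 5 other settings, the DESeq2 Wald test among them (log2 fold change -1.73, adjusted p = 0.000675), and in 3 of the 12 fits that left out 1 library, those without DSS-treated wild-type library 1 (adjusted p = 0.0499) or 3 (0.0218) or DSS-treated RelaΔhepStat3Δhep library 3 (0.0431). In wild-type livers the means were 107 ± 45.5 CPM (SD, n = 3) untreated and 183 ± 111 after DSS, a log2 fold change of 0.78 (SE 0.47, edgeR adjusted p = 0.484). That value was 0.16 without DSS-treated library 3.

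All 3 DSS-treated livers of the RelaΔhepStat3Δhep comparison had high Xist and all 3 untreated livers low Xist, so DSS and this sex-linked difference cannot be told apart there. Over all groups Cyp7b1 ran from 58.3 to 123 CPM (median 63) in the 4 high-Xist libraries and from 102 to 317 (median 165) in the 8 low-Xist libraries. With Xist class as a covariate, which the untreated wild-type group alone can inform, the fitted DSS difference in RelaΔhepStat3Δhep livers was -0.71 (SE 0.78, edgeR adjusted p = 0.792). Of 8 tested genes known to be higher in male liver, a list without Cyp7b1, 8 had a fitted value below 0 in this comparison and 5 were called lower, as were 2.46% of all genes. Of 12 tested genes known to be higher in female liver, a list without Cyp39a1, 12 had a value above 0 and 3 were called higher, as were 4.57% of all genes.

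Between genotypes, untreated Cyp7b1 was 2.48-fold higher in RelaΔhepStat3Δhep than in wild-type livers, without overlap (log2 fold change 1.31, SE 0.47, edgeR unadjusted p = 0.0178, adjusted p = 0.334). The lowest of these wild-type livers, library 3 at 63.9 CPM, had high Xist. With the Xist covariate the untreated difference was 1.05 (SE 0.50, edgeR adjusted p = 0.511). After DSS Cyp7b1 was 2.26-fold lower (log2 fold change -1.18, SE 0.47, edgeR adjusted p = 0.302), the groups overlapped, and the value was -0.56 without DSS-treated wild-type library 3. These 3 DSS-treated wild-type livers had low Xist and the 3 RelaΔhepStat3Δhep ones high Xist, so for all genes the genotype after DSS cannot be told apart from this difference. The interaction, which subtracts the wild-type DSS difference from the RelaΔhepStat3Δhep one, was -2.49 (SE 0.66) with an unadjusted p of 0.00329 and an adjusted p of 0.126 by edgeR. By p-value it ranked 460 among the 17652 genes tested for the interaction. DESeq2 gave it an adjusted p of 0.00177, and with the Xist covariate it was -1.22 (edgeR adjusted p = 0.836).

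Cyp39a1, the 7α-hydroxylase of 24-hydroxycholesterol, was at 76, 53.3 and 109 CPM in untreated and at 83, 62.1 and 33.2 in DSS-treated wild-type livers. In RelaΔhepStat3Δhep livers it was at 66.6, 105 and 126 CPM untreated and at 126, 110 and 178 after DSS. After DSS the groups did not overlap between genotypes, with means of 59.4 ± 25 CPM in wild-type and 138 ± 35.9 in RelaΔhepStat3Δhep livers (SD, n = 3 each). The fitted difference was 2.32-fold (log2 fold change 1.21, SE 0.36), with an unadjusted p of 0.00595 and an adjusted p of 0.182 by edgeR and an adjusted p of 0.0234 by DESeq2.

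The other differences of Cyp39a1 were smaller than this one, and the groups overlapped in both DSS comparisons and between untreated livers. DSS was accompanied by a log2 fold change of -0.42 (SE 0.36, edgeR adjusted p = 0.648) in wild-type and of 0.48 (SE 0.36, adjusted p = 0.453) in RelaΔhepStat3Δhep livers, and the interaction was 0.90 (SE 0.51, adjusted p = 0.397). With 1 library left out in turn, the wild-type value ran from -0.74, without DSS-treated library 1, to -0.12, without untreated library 3. The value in RelaΔhepStat3Δhep livers ran from 0.25, without DSS-treated library 3, to 0.69, and the interaction from 0.60 to 1.22. The highest wild-type value, 109 CPM, was in the untreated library with high Xist. Cyp39a1 ran from 109 to 178 CPM (median 118) in the 4 high-Xist libraries and from 33.2 to 126 (median 71.3) in the other 8. With the Xist covariate the difference between genotypes after DSS was 0.46 (edgeR adjusted p = 0.94). The DSS difference in RelaΔhepStat3Δhep livers was then -0.28 and the interaction -0.16, both of changed sign (edgeR adjusted p = 0.911 and 0.98).

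The 2 oxysterol 7α-hydroxylases were also set against each other as the ratio of Cyp7b1 to Cyp39a1 per kilobase, a measure chosen after their values were seen. The ratio was 1.89, 4.08 and 0.824 in untreated and 1.87, 2.94 and 13.2 in DSS-treated wild-type livers. It was 6.7, 4.07 and 1.98 in untreated and 0.695, 0.75 and 0.97 in DSS-treated RelaΔhepStat3Δhep livers. Every DSS-treated RelaΔhepStat3Δhep liver therefore held more Cyp39a1 than Cyp7b1 per kilobase, as did untreated wild-type library 3, and no other library did. In DSS-treated RelaΔhepStat3Δhep livers the difference in mean log2 ratio was -2.25 from untreated livers of that genotype and -2.39 from DSS-treated wild-type livers (exact permutation test, two-sided, p = 0.1 for each, the smallest that 3 mice against 3 allow). Since the ratio was chosen from these same values, this p is a description and no independent test. Both comparisons also set high-Xist against low-Xist livers, so the ratio cannot be told apart from that difference.

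**Figure D2:**
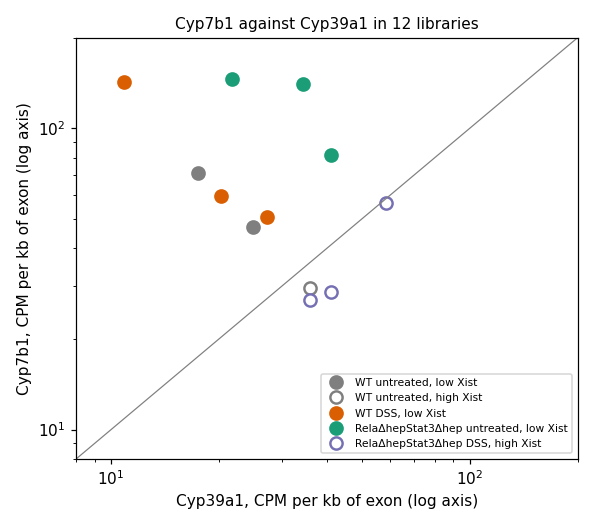
Cyp7b1 (vertical axis) against Cyp39a1 (horizontal axis) in the 12 libraries, both as CPM per kilobase of exon on log axes, with a grey line where both are equal. Colours give the group and open points the 4 libraries with high Xist, which are the 4 points below the line.

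Cyp27a1, the mitochondrial sterol 27-hydroxylase, was the most abundant of the 5 and had the smallest relative range of the 3 abundant ones, 3.46-fold over the 12 libraries against 5.43-fold for Cyp7b1 and 5.37-fold for Cyp39a1. It was at 351, 374 and 250 CPM in untreated and at 290, 153 and 436 in DSS-treated wild-type livers. In RelaΔhepStat3Δhep livers it was at 460, 530 and 395 CPM untreated and at 175, 253 and 280 after DSS. The DSS-treated wild-type livers enclosed all 3 untreated ones, while the DSS-treated RelaΔhepStat3Δhep livers were all below their untreated livers.

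In RelaΔhepStat3Δhep livers the mean of Cyp27a1 was 462 ± 67.5 CPM untreated and 236 ± 54.3 after DSS (SD, n = 3 each), a log2 fold change of -0.97 (SE 0.32). The unadjusted p was 0.00937 and the adjusted p 0.0835 by edgeR, and 0.0156 by DESeq2. The edgeR value passed without DSS-treated wild-type library 2 (adjusted p = 0.0176) or 3 (0.0477), which are no part of the comparison but enter the shared estimate of the spread. With the Xist covariate it was -0.43 (edgeR adjusted p = 0.831). In wild-type livers the DSS difference was -0.15 (SE 0.31, edgeR adjusted p = 0.879), and 0.15 without DSS-treated library 2.

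Untreated Cyp27a1 was higher in RelaΔhepStat3Δhep than in wild-type livers without overlap, at a log2 fold change of 0.50 (SE 0.31, edgeR adjusted p = 0.556). With the Xist covariate this untreated difference was 0.35 (edgeR adjusted p = 0.788). After DSS the genotypes overlapped (log2 fold change -0.31, SE 0.31, adjusted p = 0.709, and 0.10 without DSS-treated wild-type library 3), and the interaction was -0.81 (SE 0.44, edgeR adjusted p = 0.377), and -0.41 without that library. The Xist covariate turned the genotype difference after DSS to 0.23 and left the interaction at -0.12 (edgeR adjusted p = 0.975 and 0.984). Relative to Cyp27a1, Cyp7b1 was also lower after DSS in RelaΔhepStat3Δhep livers, where the ratio per kilobase was 0.6, 0.499 and 0.39 untreated and 0.308, 0.201 and 0.382 treated, without overlap. In wild-type livers the same ratio was 0.253, 0.36 and 0.223 untreated, below all 3 untreated RelaΔhepStat3Δhep livers, and 0.332, 0.738 and 0.622 after DSS, with overlap. The difference in mean log2 ratio was -0.77 for DSS in RelaΔhepStat3Δhep livers (exact permutation test, two-sided, p = 0.1), 0.97 for DSS in wild-type livers (p = 0.2), and 0.84 (p = 0.1) and -0.90 (p = 0.2) for the genotype without and after DSS. This ratio too was chosen after the values were seen, and the DSS-treated RelaΔhepStat3Δhep livers all had high Xist.

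Cyp46a1, which in the brain turns cholesterol into 24-hydroxycholesterol, was near the lower end of detection in liver. Its estimated counts were 35, 55 and 34 in untreated and 29, 0 and 25 in DSS-treated wild-type livers, or 0.46, 0.752 and 0.513 CPM and 0.405, 0 and 0.37 CPM. The count of 0 allows up to 0.0478 CPM in that library at a limit of 3 counts. RelaΔhepStat3Δhep livers held 102, 68 and 85 counts untreated (1.36, 0.938 and 1.15 CPM) and 19, 52 and 40 after DSS (0.271, 0.622 and 0.565 CPM). The untreated RelaΔhepStat3Δhep livers were above all other 9 libraries. By edgeR the DSS difference was -1.14 (SE 0.76, adjusted p = 0.533) in wild-type and -1.23 (SE 0.73, adjusted p = 0.333) in RelaΔhepStat3Δhep livers, and the genotype difference in untreated livers was 0.99 (SE 0.73, adjusted p = 0.639), each without overlap of the groups. After DSS the genotypes overlapped (0.90, SE 0.76, edgeR adjusted p = 0.647). Without DSS-treated wild-type library 2, where the count was 0, the wild-type DSS difference was -0.57 and the genotype difference after DSS 0.33.

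Ch25h, the 25-hydroxylase known from macrophages, had between 0 and 23 estimated counts per library. Untreated wild-type livers held 0, 0 and 8 counts and DSS-treated ones 11, 11 and 10, or 0, 0 and 0.121 CPM against 0.154, 0.175 and 0.148. Untreated RelaΔhepStat3Δhep livers held 0, 10 and 3 counts and DSS-treated ones 9, 23 and 6, or 0, 0.138 and 0.0405 CPM against 0.128, 0.275 and 0.0848. The wild-type groups did not overlap and the RelaΔhepStat3Δhep groups did, with log2 fold changes of 1.98 (SE 1.36, edgeR adjusted p = 0.549) and 1.44 (SE 1.30, adjusted p = 0.544). The fitted values rest on single libraries, being 6.54 without untreated wild-type library 3, which leaves that group at 0, and 2.92 without untreated and 0.83 without DSS-treated RelaΔhepStat3Δhep library 2. Fitted with the Xist covariate, the DSS difference was 6.53 in wild-type livers and turned to -4.70 in RelaΔhepStat3Δhep livers. The genotype difference after DSS went from 0.04 to -6.10 and the interaction from -0.54 to -11.23. The untreated wild-type group alone informs this covariate, and only its library 3 held counts. No difference of Ch25h passed by edgeR.

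The filter bears on Ch25h and not on the others. Only 3 libraries, 2 DSS-treated wild-type and 1 DSS-treated RelaΔhepStat3Δhep, reached its 0.141 CPM, which the filter applies to library sizes not scaled by TMM, so Ch25h was tested only through the groups where it was higher. Of 11 macrophage markers, 10 were called higher after DSS in RelaΔhepStat3Δhep livers (4.57% of all genes) and 1 in wild-type livers (0.453%), and their part in the Ch25h values was not tested. Cyp27a1, Cyp7b1 and Cyp39a1 reached the filter level in all 12 libraries and Cyp46a1 in 11.

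**Figure D3:**
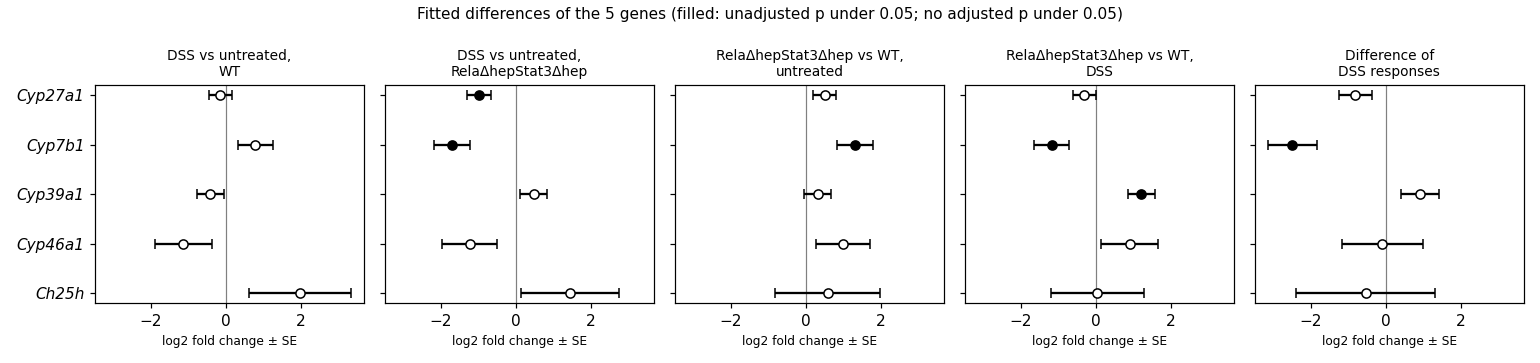
Fitted log2 fold changes with their SE (horizontal axes) of the 5 hydroxylases (vertical axis) in 5 comparisons by edgeR, where the last panel is the response to DSS in RelaΔhepStat3Δhep minus that in wild-type livers. Filled points had an unadjusted p under 0.05, and no adjusted p was under 0.05. Cyp7b1 is filled in 4 panels, Cyp27a1 in 1 and Cyp39a1 in 1.

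Across the 5 comparisons, none of the 5 hydroxylases had an adjusted p under 0.05 by edgeR. Among all tested genes this threshold was passed by 0.685% for DSS in wild-type livers, 7.02% for DSS in RelaΔhepStat3Δhep livers, 0.0623% and 0.334% for the genotype without and after DSS, and 0.408% for the interaction. These shares moved with single libraries, the calls running from 35 to 209, 241 to 1736, 2 to 34, 11 to 392 and 21 to 220 genes in the same order when 1 library was left out in turn. By DESeq2, Cyp27a1 and Cyp7b1 passed for DSS in RelaΔhepStat3Δhep livers, where 14.4% of genes passed, Cyp39a1 for the genotype after DSS (3.4% of genes), and Cyp7b1 for the interaction (4.5% of genes). At an unadjusted edgeR p under 0.05 the count of hydroxylases was 0 for DSS in wild-type livers, 2 for DSS in RelaΔhepStat3Δhep livers, 1 and 2 for the genotype without and after DSS, and 1 for the interaction. The share of all genes at that level was 14.5%, 24.1%, 11.7%, 14.3% and 16.3% in the same order.

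Groups that did not overlap were common in these data. For DSS in wild-type livers this held for 18.7% of all genes and for Cyp46a1 and Ch25h, the latter having passed the filter only through DSS-treated libraries, and for DSS in RelaΔhepStat3Δhep livers for 3 of the 5 hydroxylases and 31.8% of all genes. For the genotype in untreated livers it held for Cyp27a1, Cyp7b1 and Cyp46a1 and 20.2% of all genes, and after DSS for Cyp39a1 alone and 16.8%. The median fitted value of all genes lay between -0.02 and 0.02 in the 5 comparisons.

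The hydroxylases depend on electron donors and on a supply of cholesterol, and these partners were given from a list of 14 genes, 11 of them tested. For DSS in RelaΔhepStat3Δhep livers 2 of the 11 were called lower, where 2.46% of all genes were, and 1 higher, where 4.57% were. The list's median log2 fold change was -0.33, against -0.01 for all genes. In wild-type livers none of the 11 was called, where 0.685% of all genes were, and 4 had an unadjusted edgeR p under 0.05, as had 14.5% of all genes.

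The 2 donors that fell serve different members. Fdx1, the mitochondrial ferredoxin that passes electrons to Cyp27a1, was at 71, 84 and 44.8 CPM in untreated and at 32.3, 31.6 and 37.7 in DSS-treated RelaΔhepStat3Δhep livers (log2 fold change -0.98, SE 0.19, edgeR adjusted p = 0.0128). Without untreated RelaΔhepStat3Δhep library 2 it was -0.77 (adjusted p = 0.0672). In wild-type livers it was at 66.3, 57.8 and 65 CPM untreated and at 47.1, 38.3 and 46.2 after DSS, without overlap, though the adjusted p was 0.224.

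Por, the reductase that serves the P450 enzymes of the endoplasmic reticulum, Cyp7b1 and Cyp39a1 among them, was at 275, 828 and 458 CPM in untreated and at 99.6, 149 and 203 in DSS-treated RelaΔhepStat3Δhep livers. Its log2 fold change was -1.79 (SE 0.43, edgeR adjusted p = 0.032), and -1.28 (adjusted p = 0.124) without untreated library 2, where it stood highest. The call was also lost without untreated library 3 (adjusted p = 0.0693) and without DSS-treated library 1 (0.128) or 2 (0.0886) of this genotype. In wild-type livers the fitted value of Por was -0.37 (SE 0.42, edgeR adjusted p = 0.759), running from -0.87, without DSS-treated library 2, to -0.10, without DSS-treated library 1.

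The acyltransferases that esterify cholesterol and oxysterols were called in different comparisons. Soat1, the form found in most cells and in macrophages, rose in RelaΔhepStat3Δhep livers from 12.7, 9.16 and 11.3 CPM to 21.7, 20.2 and 16.3 after DSS (log2 fold change 0.81, SE 0.21, edgeR adjusted p = 0.0336), a call lost in 5 of the 12 fits that left out 1 library, each an untreated library or DSS-treated library 1 or 2 of this genotype (adjusted p up to 0.144). It moved in the same libraries as the macrophage markers, and their part was not tested. Soat2, the form of hepatocytes and enterocytes, was at 27.4, 33.6 and 29.6 CPM in DSS-treated wild-type and at 16.7, 19.2 and 15.4 in DSS-treated RelaΔhepStat3Δhep livers. It was the 1 partner gene called between genotypes after DSS, where 0.147% of all genes were called lower (log2 fold change -0.82, SE 0.14, edgeR adjusted p = 0.0392). That call was held in 5 of the 12 fits that left out 1 library, with adjusted p from 0.017 to 0.154.

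**Figure D4:**
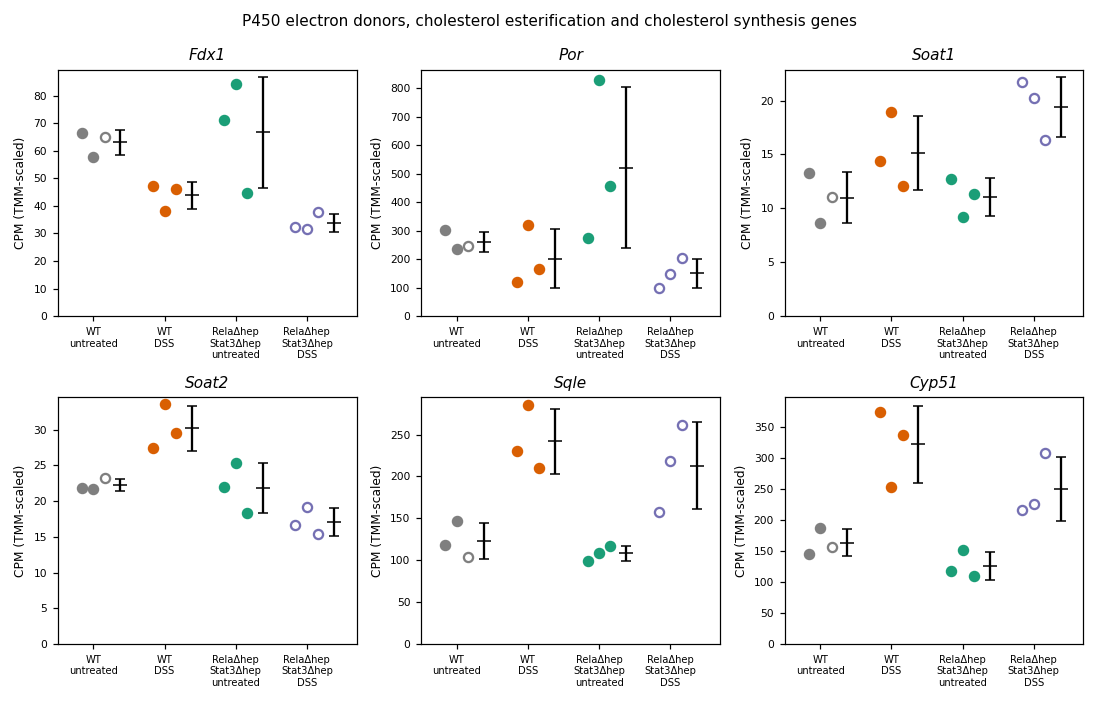
TMM-scaled CPM (vertical axes, linear, from 0) of 6 genes around the oxysterol hydroxylases in the 12 libraries, by group: the electron donors Fdx1 and Por, the acyltransferases Soat1 and Soat2, and the cholesterol synthesis genes Sqle and Cyp51. Points are libraries, open points those with high Xist, and bars the mean ± SD of 3 mice. Soat2 is higher in every DSS-treated wild-type liver, from 27.4 to 33.6 CPM, than in any other liver.

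Oxysterols restrain cholesterol synthesis and activate the liver X receptors, and both sets of genes were counted. Of 21 tested genes of cholesterol synthesis, 2 were called higher after DSS in wild-type livers, where 0.453% of all genes were, and 5 in RelaΔhepStat3Δhep livers, where 4.57% of all genes were, and none was called lower. The count of 5 ran from 1 to 6 when 1 library was left out in turn. The median log2 fold changes were 0.52 and 0.35. Sqle, the squalene epoxidase, and Cyp51, the lanosterol demethylase, were called in both genotypes, at log2 fold changes of 0.98 (SE 0.20, edgeR adjusted p = 0.0465) and 0.98 (SE 0.20, adjusted p = 0.049) in wild-type livers. Both wild-type calls were lost in 10 of the 12 fits that left out 1 library, with adjusted p up to 0.161 for Sqle and 0.151 for Cyp51. In RelaΔhepStat3Δhep livers Idi1, which isomerizes isopentenyl diphosphate, had the lowest adjusted p of the list (log2 fold change 1.51, SE 0.27, edgeR adjusted p = 0.00838), and it was called in 12 of the 12 fits that left out 1 library, whereas the sterol methyl oxidase Msmo1 (1.16, adjusted p = 0.0155) was called in 9 and the squalene synthase Fdft1 (0.83, adjusted p = 0.0471) in 3.

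Of 11 tested receptors and targets of oxysterols, the stearoyl-CoA desaturase Scd1 alone was called, lower after DSS in RelaΔhepStat3Δhep livers, where 2.46% of all genes were. It was there at 17700, 8900 and 6810 CPM untreated and at 1730, 1350 and 1300 after DSS (log2 fold change -2.93, SE 0.47, edgeR adjusted p = 0.00499). Wild-type livers gave -2.10 (SE 0.45, edgeR adjusted p = 0.0537), running from -2.48 to -1.54 with 1 library left out (adjusted p from 0.0485 to 0.158). The median of the 11 genes was 0.26 in wild-type and -0.21 in RelaΔhepStat3Δhep livers.

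Downstream of the hydroxylases, 12 genes of bile acid synthesis were tested and 2 were called lower after DSS in RelaΔhepStat3Δhep livers, where 2.46% of all genes were. These were Scp2, whose thiolase shortens the bile acid side chain (log2 fold change -1.18, edgeR adjusted p = 0.0372), and Slc27a5, the bile acid CoA ligase (-0.73, adjusted p = 0.0487). Scp2 kept its call in 5 and Slc27a5 in 1 of the 12 fits that left out 1 library, with adjusted p up to 0.109 and 0.171. Cyp7a1, the first enzyme of the classic route, was at 302, 86.9 and 182 CPM in untreated and at 28.5, 4.78 and 81.5 in DSS-treated wild-type livers, without overlap (log2 fold change -2.31, SE 1.17, edgeR adjusted p = 0.408). In RelaΔhepStat3Δhep livers it was at 318, 402 and 51.4 CPM untreated and at 25.9, 74.9 and 8.08 after DSS, with overlap (-2.82, SE 1.19, adjusted p = 0.189). Cyp8b1, the 12α-hydroxylase, gave 0.59 (SE 0.77) in wild-type and 0.02 (SE 0.76) in RelaΔhepStat3Δhep livers (edgeR adjusted p = 0.793 and 0.991). With 1 library left out in turn, Cyp7a1 ran from -3.52 to -1.79 and from -3.92 to -2.35 in these genotypes, and Cyp8b1 from 0.22 to 0.91 and from -0.52 to 0.41.

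Of 10 tested genes that sense bile acids or control their synthesis, 4 were called lower after DSS in RelaΔhepStat3Δhep livers (2.46% of all genes). None was called for DSS in wild-type livers (0.685% of all genes), the genotype after DSS (0.334%) or the interaction (0.408%), where few genes passed at all. The 4 were the nuclear receptors Nr1i3 (log2 fold change -0.99, edgeR adjusted p = 0.0116), Ppara (-0.93, adjusted p = 0.0145), Hnf4a (-0.70, adjusted p = 0.0325) and Nr1h4 (-0.71, adjusted p = 0.04), the last being the bile acid receptor FXR. Leaving out 1 library in turn kept the call of Nr1i3 and of Ppara in 10, of Hnf4a in 6 and of Nr1h4 in 5 of 12 fits, with adjusted p up to 0.174. With Xist class as a covariate no gene of these 5 lists passed in any comparison, but few genes passed at all. Over all genes that fit called 50 for DSS in wild-type and 4 in RelaΔhepStat3Δhep livers. It called 2 and 5 for the genotype without and after DSS, and 4 for the interaction. For DSS in RelaΔhepStat3Δhep livers the fitted values of Scp2 (-0.40), Slc27a5 (-0.44), Hnf4a (-0.49), Por (-1.66), Soat1 (0.79) and Scd1 (-2.39) were then smaller in size than without it. Those of Fdx1 (-1.04), Nr1i3 (-1.19), Ppara (-1.23), Nr1h4 (-0.95) and the 5 called genes of cholesterol synthesis (1.09 to 1.74) were not. The SE of these covariate values ran from 0.32 for Hnf4a to 0.79 for Por. The untreated wild-type group alone informs the covariate, through its 1 library with high Xist, which also held Y-linked transcripts. The values therefore do not sort these genes by a sex-linked part, which was not tested. Soat2 between genotypes after DSS was -0.91 with the covariate and -0.82 without it. For DSS in wild-type livers Sqle was 0.87 and Cyp51 0.95 with it, each 0.98 without it. No gene of the 5 lists was called for the genotype in untreated livers or for the interaction, where 0.0623% and 0.408% of all genes were.

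The genes whose log2 CPM followed each hydroxylase most closely over the 12 libraries were ranked by Pearson's r among about 11006 genes with a mean of at least 1 CPM. The libraries share groups, treatment and sex-linked differences, so these values describe likeness alone. For Cyp27a1 they were Aldh2, the mitochondrial aldehyde dehydrogenase (r = 0.98, Spearman's rho 0.98), Pkp4, Iars2, Acadvl and Uqcrc1. For Cyp7b1 they were the peroxiredoxin Prdx2 (r = 0.92, rho 0.92), Taf4a, Eif4ebp2, Apbb2 and Tmbim6. For Cyp39a1 they were the transporter Abcc4 (r = 0.90, rho 0.89), Fmo2, Zfp248, the leptin receptor Lepr and Kifap3.

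For the rarely counted members the likeness rested on few reads. Cyp46a1 was followed by Cyp4f15 (r = 0.93, rho 0.75), Acacb, Zw10, 1700017B05Rik and Eno1, and Ch25h by Hap1 (r = 0.88, rho 0.92), Tagln2, Pou2f2, the interferon regulatory factor Irf7 and Rnf24. Ranking by Spearman's rho instead kept 4 of the 5 genes for Cyp27a1, 2 for Cyp7b1, 2 for Cyp39a1, 1 for Cyp46a1 and 3 for Ch25h. For Cyp39a1, Abcc4 also had rank 5 by rho and is not among the 2. Among the 10 pairs of hydroxylases, r was highest for Cyp27a1 with Cyp46a1 (0.79) and with Cyp7b1 (0.75), and lowest for Cyp7b1 with Cyp39a1 (-0.49).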

How the data were processed

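Paired-end libraries were made from rRNA-depleted liver RNA. After trimming with fastp and alignment to mm9 with HISAT2, the authors deposited StringTie estimated counts per gene as whole numbers, without normalization. The annotation used for counting is not given in the sources used here, and 28677 of 51609 rows were named from GENCODE vM1. Transcript, exon and batch information was not analysed here.

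The main tests were those of edgeR 4.0.16 in R 4.3.3 (filterByExpr, TMM factors 0.758 to 1.13, robust quasi-likelihood F tests, 4 groups in 1 model, biological coefficient of variation 0.317). Adjusted p-values are Benjamini-Hochberg over 17652 genes, with calls under 0.05. DESeq2 1.42.0 was an alternative. Exact permutation tests used log2(CPM + 0.5). Each library was taken as 1 mouse, as the study reports 3 biological replicates, though the sample titles give only a replicate number. Intervals of counting error are not given, and limits for counts of 0 (3 counts) cover counting error only. The steps were tested on simulated data, and no duplicate libraries were found. The members, gene lists and ratios were chosen with earlier results of these data known. Named genes were the members, pathway genes called by edgeR, Cyp7a1 and Cyp8b1, and the 5 genes most like each member.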

Additional observations from a re-analysis of the deposited data

Results flagged for a closer look

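The response of Cyp7b1 to DSS was picked out because all 3 treated livers lay on opposite sides of their untreated mean in the genotypes. The 3 DSS-treated wild-type livers were above their untreated mean of 107 CPM, and the 3 DSS-treated RelaΔhepStat3Δhep livers were below theirs of 265 CPM. The wild-type groups overlapped, with untreated library 2 at 154 CPM against 110 and 129 in DSS-treated libraries 1 and 2, and the wild-type log2 fold change of 0.78 (edgeR adjusted p = 0.484) was 0.16 without DSS-treated library 3. The test of the difference itself gave an interaction of -2.49 on the log2 scale, with an edgeR adjusted p of 0.126, so it did not pass the threshold. The 3 DSS-treated RelaΔhepStat3Δhep livers had high Xist and the other groups, apart from 1 untreated wild-type library, did not. The part of that difference in the interaction cannot be told apart from that of genotype and DSS.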

How the results depend on the processing

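None of the 25 results of the hydroxylases passed the edgeR threshold, so their settings bear on calls gained, which were 14 in 478 refits. With 1 library left out, fitted values near 0 changed sign, Cyp27a1 running from -0.56 to 0.15 for DSS in wild-type livers and from -0.62 to 0.10 for the genotype after DSS, and Ch25h from -0.90 to 5.14 for the genotype in untreated livers. The Xist covariate turned Cyp39a1 from 0.48 to -0.28 and Ch25h from 1.44 to -4.70 for DSS in RelaΔhepStat3Δhep livers. For the genotype after DSS it turned Cyp27a1 from -0.31 to 0.23 and Ch25h from 0.04 to -6.10. For the interaction it turned Cyp39a1 from 0.90 to -0.16 and Cyp46a1 from -0.09 to 0.22. For DSS in RelaΔhepStat3Δhep livers, Cyp7b1 passed by DESeq2 (-1.73), with DESeq2 size factors (-1.73), with at least 10 counts in every library (-1.73), with the compared groups alone (-1.73) and, chosen after seeing the data, without untreated wild-type library 3 and DSS-treated wild-type library 1 (-1.71). Cyp27a1 passed there by DESeq2 (-0.99) and with the compared groups alone (-0.99). DESeq2 also passed the interaction of Cyp7b1 (-2.51) and Cyp39a1 between genotypes after DSS (1.21). Leaving out each replicate in turn gave -2.14 to -1.52 for Cyp7b1 and -1.11 to -0.80 for Cyp27a1 after DSS in RelaΔhepStat3Δhep livers. The cause of these changes was not tested. Same-numbered mice shared only a number (correlations of deviations -0.07 to 0.20, 4 of 12 highest with their own number), and with the replicate number as a block Cyp7b1 was -1.79 and Cyp27a1 -0.99 in that comparison (edgeR adjusted p = 0.0816 and 0.114). The block changed no call of a hydroxylase, while the called genes of bile acid synthesis went from 2 to 0. Over all genes, calls for DSS in RelaΔhepStat3Δhep livers numbered 1240 by edgeR, 2315 by DESeq2 and 4 with the Xist covariate. The corresponding numbers were 121, 859 and 50 for DSS in wild-type livers, 11, 334 and 2 for the genotype in untreated livers, 59, 583 and 5 after DSS, and 72, 698 and 4 for the interaction. Other scaling moved the median of all genes by at most 0.02. Depth limits Ch25h and Cyp46a1, whose counts reached 23 and 102.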
